A study of Mus musculus with 28 samples.

Results

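The 10 genes described here encode the classical MHC class I pathway of mouse cells, from the heavy chains H2-K1 and H2-D1 and their light chain B2m, through the peptide transporter subunits Tap1 and Tap2 and the loading factor Tapbp (tapasin), to the immunoproteasome subunits Psmb8, Psmb9 and Psmb10 and the transactivator Nlrc5. They were chosen by gene symbol from a list proposed with earlier results of these data in view, without a threshold on any value, and all 10 were found among the 25251 genes of the deposited table. Their levels in each population and genotype are therefore given as a description, and the model values beside them are not independent support for any pattern. The study sequenced mRNA from bone marrow of mice carrying 2 wild-type Flt3 alleles (Flt3+/+, strain C57 BL6) and of knock-in mice with an internal tandem duplication in both copies of this cytokine receptor gene (Flt3 ITD/ITD), which develop a myeloproliferation, all aged 8 to 10 weeks. The methods of the study place the knock-in mice on the C57 BL6 background as well. Endothelial cells (ECs, CD45-Ter119-CD31+) and mesenchymal stromal cells (MSCs, CD45-Ter119-CD31-CD166-Sca1+) were sorted from the cells lining the bone, 100 cells per library and 5 libraries per genotype, and unfractionated bone marrow mononuclear cells (MNCs) were taken at 200 cells per library and 4 libraries per genotype. Each of the 28 libraries came from 1 mouse, whose sex is not given in the sources used here. The duplication is present in every cell of the knock-in mice, so a genotype difference in ECs or MSCs was measured in mutant cells within a mutant marrow.

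In this pathway, proteasomes cut cytosolic proteins into peptides, the Tap1-Tap2 transporter moves them into the endoplasmic reticulum, and tapasin holds an empty class I molecule next to the transporter until it has bound a peptide. A heavy chain paired with B2m then carries the peptide to the cell surface, where CD8 T cells read it, and natural killer cells sense cells that lack it. Interferons raise many of these genes together, partly through Nlrc5, and nearly all nucleated cells carry class I, in amounts that differ widely between cell types.

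On mm10 (GRCm38, with GENCODE vM21 gene positions), 7 of the 10 genes lie in the MHC on chromosome 17. The gene Tapbp spans chr17:33915899-33929292, H2-K1 spans chr17:33996017-34000347 and H2-D1 spans chr17:35262730-35267499. Psmb9 (chr17:34181987-34187764), Tap1 (chr17:34187553-34197225), Psmb8 (chr17:34197721-34201454) and Tap2 (chr17:34203527-34216321) follow one another within 34.3 kb, with Psmb9 and Tap1 facing away from each other and sharing 212 exonic bases. B2m (chr2:122147686-122153083), Psmb10 (chr8:105935735-105938444) and Nlrc5 (chr8:94434356-94527272) lie elsewhere. Reads without strand information cannot be assigned within shared exons, and this also touched Tapbp, which shared 904 exonic bases with Gm19412 and 149 with Zbtb22, Psmb8 (498 with Gm20496) and Tap2 (533 with Gm15821). Of the 51-base stretches of each gene's transcripts, none for B2m, Psmb10 and Nlrc5 also occurred in transcripts of another gene, where reads have no unique position. For the other 7 genes the share ran from 5.39% (Psmb8) to 22.2% (Tapbp), with 6.41% for H2-K1 and 13.3% for H2-D1. These exons and stretches are from GENCODE, and whether the authors' transcript set holds the same overlapping genes was not checked. H2-L, a near copy of H2-D1, was listed at 0.0674 to 0.0896 times the RPKM of H2-D1 and followed it across the 28 libraries with a Pearson r of 0.98. Reads that could not be placed in only 1 of them were discarded. Whether the counts of H2-L came from a gene separate from H2-D1 in these mice was not tested.

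Promoter windows from RefSeq (GRCm38.p6) matched 8 of the 10 genes, all but Tap2 and Nlrc5. The 250 bases upstream of the start are printed for the 3 class I chains, which gave the highest levels of the 10 genes, and for Psmb8, the immunoproteasome subunit with the highest mean RPKM in ECs and MNCs. GENCODE lists transcripts of H2-D1 and Psmb8 that begin upstream of these windows. Capitals mark letters of the motifs searched on both strands: GGGNNNNCCC, a form bound by NF-kB, in the heavy chains, GAAANNGAAA, the core of the interferon-stimulated response element, in B2m, and TTCNNNGAA, the gamma-activated site of interferon-responsive promoters, in Psmb8.
H2-K1, chr17:34000348-34000597, minus strand: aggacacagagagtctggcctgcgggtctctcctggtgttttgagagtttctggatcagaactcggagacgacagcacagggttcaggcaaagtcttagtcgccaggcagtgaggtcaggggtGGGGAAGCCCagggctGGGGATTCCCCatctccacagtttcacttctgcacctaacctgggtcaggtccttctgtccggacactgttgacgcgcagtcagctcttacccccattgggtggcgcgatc
H2-D1, chr17:35262844-35263093, plus strand: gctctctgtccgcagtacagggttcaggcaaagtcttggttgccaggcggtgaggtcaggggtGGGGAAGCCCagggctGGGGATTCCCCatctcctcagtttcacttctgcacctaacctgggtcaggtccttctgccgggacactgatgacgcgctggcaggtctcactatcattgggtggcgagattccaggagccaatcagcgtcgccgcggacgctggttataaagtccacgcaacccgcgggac
B2m, chr2:122147437-122147686, plus strand: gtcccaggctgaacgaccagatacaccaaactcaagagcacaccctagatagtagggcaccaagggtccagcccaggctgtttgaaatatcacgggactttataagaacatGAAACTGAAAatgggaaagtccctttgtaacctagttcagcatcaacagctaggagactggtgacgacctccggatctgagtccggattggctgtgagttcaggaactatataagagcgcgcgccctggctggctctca
Psmb8, chr17:34197945-34198194, plus strand: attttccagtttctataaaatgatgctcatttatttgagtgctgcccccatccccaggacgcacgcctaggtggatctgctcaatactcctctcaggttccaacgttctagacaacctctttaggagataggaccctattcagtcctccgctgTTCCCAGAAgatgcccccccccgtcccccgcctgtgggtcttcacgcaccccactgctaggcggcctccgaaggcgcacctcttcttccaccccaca

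The heavy chain sequences shared an identical run of 47 bases, from -141 to -95 of H2-K1 and from -201 to -155 of H2-D1, which held 3 matches to GGGNNNNCCC, the last 2 overlapping. GGGNNNNCCC occurred in 2 of the 8 genes with a window against 11.9% of all 32851 windows of 300 bases. GAAANNGAAA occurred only in B2m, from -139 to -130 (3.44% of all windows), and TTCNNNGAA only in Psmb8, from -97 to -89 (8.30%). Only exact matches were sought, so a window without a match may still hold a variant of these elements. ATTGG, the letters of the Y box of class I promoters, occurred in 6 of the 8 genes and in 37.4% of all windows. Whether each match acts as a Y box was not tested. Tap1 and Psmb9, transcribed from opposite strands, had windows that shared 275 bases. The ATTGG match from -222 to -218 of Tap1 and that from -8 to -4 of Psmb9 were the same bases. The 6 genes therefore do not hold 6 separate matches.

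Library totals ran from 6377013 to 33880743 counts. The sorted populations carried the markers of their labels, with Cdh5 at 165 to 251.8 RPKM (reads per kilobase of transcript, scaled to library depth) in ECs and at most 0.19 in MSCs, Pdgfrb at 11.4 to 25.0 RPKM in MSCs and at most 3.85 in ECs, and Ptprc (CD45) at 125 to 161 RPKM in MNCs. By genotype, Cdh5 was at 225 to 251.8 RPKM in Flt3+/+ ECs and at 165 to 206 in Flt3 ITD/ITD ECs. The summed RPKM of 7 endothelial genes overlapped between them, at 2077 to 2760 and 1969 to 2776. The summed RPKM of 14 pan-leukocyte genes was 21.2 to 674 in ECs, 7.29 to 361 in MSCs and 7633 to 11719 in MNCs. The sum of 8 immediate-early genes, which respond to handling, was 947 to 2837 RPKM in ECs, 1426 to 3831 in MSCs and 19.2 to 475 in MNCs, and its part in the differences between MNCs and the sorted cells was not tested. The highest leukocyte sum in ECs was in Flt3 ITD/ITD replicate 2 (Ptprc 4.57 RPKM, 13 of the 14 genes above 3 counts) and the highest in MSCs was in Flt3 ITD/ITD replicate 5 (Ptprc 0.53 RPKM, all 14 genes). The same libraries held the highest sums of 8 neutrophil genes. That sum was 29492 RPKM in the EC library, against at most 1295 in the other EC libraries. In the MSC library it was 6059 RPKM, against at most 482 in the other MSC libraries. In these bulk libraries, fewer cells of a type and less RNA per cell cannot be told apart.

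ECs had the highest levels of the class I chains. B2m, the light chain shared by all class I molecules, averaged 10427 ± 1977 RPKM (SD, n = 10) in ECs, the number 3 transcript of the population, with a lowest library of 6988, a median of 10251 and a highest of 14533. In MNCs B2m ran from 2110 to 3911 RPKM with a median of 2874 (n = 8), and in MSCs from 1268 to 2876 with a median of 1732 (n = 10). Every EC library lay above every MNC and MSC library, while MNCs and MSCs overlapped. H2-D1, a classical heavy chain, ran from 1255 to 1948 RPKM with a median of 1586 in ECs, from 348 to 1932 with a median of 798 in MNCs, and from 409 to 995 with a median of 597 in MSCs. ECs stood above MSCs in every library, and the MNC range reached into both. H2-K1, the other heavy chain of this strain, ran from 438 to 1143 RPKM with a median of 735 in ECs, from 154 to 528 with a median of 345 in MNCs, and from 99.4 to 246 with a median of 151 in MSCs. ECs and MSCs did not overlap for H2-K1 either.

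The transporter and loading genes were far less abundant than the class I chains. Tap1, which forms the peptide channel with Tap2, ran from 5.57 to 27.0 RPKM with a median of 19.1 in MNCs, from 1.83 to 25.7 with a median of 16.9 in ECs, and from 0.01 to 5.43 with a median of 0.21 in MSCs. Tap1 was under 1 RPKM in 8 of the 10 MSC libraries, and 2 held 3 counts or fewer, so its MSC mean of 0.86 ± 1.67 RPKM rested on Flt3 ITD/ITD replicates 1 and 5. Tap2 ran from 1.19 to 45.9 RPKM in ECs (median 15.1), from 4.34 to 22.1 in MNCs (median 8.96) and from 1.41 to 6.27 in MSCs (median 2.46), with overlap between all 3. Tapbp, which bridges class I and the transporter, had means of 53.4 ± 19.9, 39.2 ± 8.38 and 56.9 ± 15.8 RPKM in ECs, MSCs and MNCs (n = 10, 10 and 8), and all 3 ranges overlapped.

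The immunoproteasome subunits were high in ECs and MNCs and low in MSCs. Psmb8, which takes the place of Psmb5 in the proteasome core, ran from 124 to 282 RPKM in MNCs (median 245), from 120.5 to 263 in ECs (median 149) and from 2.52 to 24.9 in MSCs (median 7.49). Psmb9, which replaces Psmb6, ran from 74.5 to 153 RPKM in MNCs (median 140.1), from 34.5 to 183 in ECs (median 115) and from 0.05 to 10.6 in MSCs (median 3.67). Psmb10, which replaces Psmb7, ran from 42.8 to 83.9 RPKM in MNCs (median 75.3), from 25.1 to 178 in ECs (median 80.0) and from 3.23 to 20.4 in MSCs (median 15.4). For all 3 subunits the highest MSC library lay below the lowest EC and MNC library, and ECs and MNCs overlapped. Nlrc5, the transactivator of class I promoters, was low everywhere, at 0.10 to 12.0 RPKM in ECs (median 3.11), 1.94 to 4.44 in MNCs (median 2.95) and 0 to 1.58 in MSCs (median 0.02). In MSCs, 4 libraries held no Nlrc5 count and 6 of the 10 held 3 or fewer, where 3 counts correspond to 0.0127 to 0.0400 RPKM, so in these 6 its level was at the limit of detection. The other 4 MSC libraries held 72 to 299 counts, or 0.30 to 1.58 RPKM.

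**Figure D1:**
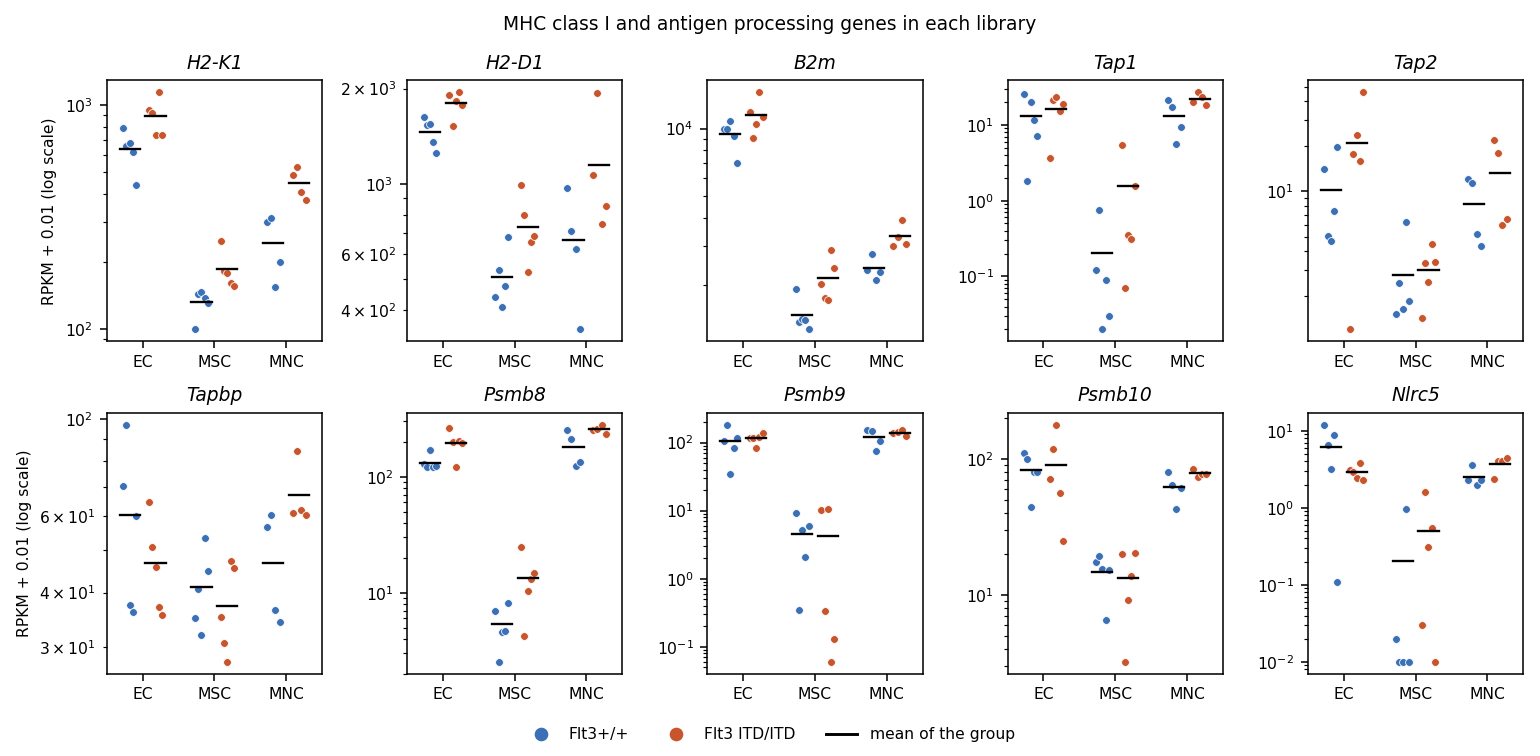
RPKM of the 10 genes in each library, plotted as RPKM + 0.01 on a log axis, by population (EC, MSC and MNC) and genotype (Flt3+/+ blue, Flt3 ITD/ITD orange), with bars at the group means and libraries at 0 drawn at 0.01. The 10 MSC libraries lie below the other populations for Psmb8, Psmb9 and Psmb10, the 10 EC libraries lie above the others for B2m, and Tapbp overlaps across all 3.

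The differences between populations were measured in 1 edgeR quasi-likelihood model of all 6 groups, averaged over genotype. A gene was called different when its Benjamini-Hochberg adjusted p was below 0.1 over the 16897 genes tested and its mean RPKM differed by 1 log2 unit or more. The 3 contrasts share libraries with one another and are not independent. In MSCs, 9 of the 10 genes were called lower than in ECs, beside 16.3% of all genes. The median log2 difference of the 10 genes was -2.35 against 0.01 over all genes, and 6 of the 10 genes did not overlap between the populations in RPKM (4.75% of all genes were lower without overlap). These shares are given beside the counts and nothing is read from them, since the list was proposed with the levels known.

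Between MSCs and ECs the estimates were widest for Tap1, Psmb9 and Psmb8, a transporter subunit and 2 immunoproteasome subunits. Tap1 was lower in MSCs by a log2 difference of -4.56 (SE 0.76, edgeR adjusted p = 4.11e-05), Psmb9 by -4.40 (SE 0.69, edgeR adjusted p = 1.74e-05) and Psmb8 by -4.02 (SE 0.26, edgeR adjusted p = 7.31e-12). In mean RPKM, ECs exceeded MSCs 24.9-fold for Psmb9, 17.5-fold for Psmb8 and 17.2-fold for Tap1. Nlrc5 differed by -3.46 with a wide error (SE 1.05, edgeR adjusted p = 0.0122), Psmb10 by -2.39 (SE 0.32, edgeR adjusted p = 2.41e-06) and Tap2 by -2.10 (SE 0.46, edgeR adjusted p = 0.00096). With the Flt3+/+ libraries alone the call was lost for Tap2 (edgeR adjusted p = 0.113) and Nlrc5 (edgeR adjusted p = 0.162). Among the class I chains, B2m differed by -2.30 (SE 0.12, edgeR adjusted p = 2.40e-13), H2-K1 by -2.03 (SE 0.14, edgeR adjusted p = 2.35e-11) and H2-D1 by -1.17 (SE 0.16, edgeR adjusted p = 2.82e-06). Tapbp was the exception, at -0.20 (SE 0.18, edgeR adjusted p = 0.432).

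MNCs and ECs differed in B2m and H2-K1. B2m was lower in MNCs by -1.76 on the log2 scale (SE 0.13, edgeR adjusted p = 6.82e-11) and H2-K1 by -1.08 (SE 0.15, edgeR adjusted p = 1.45e-06), and these were the 2 of 10 genes called lower, beside 23.1% of all genes. None was called higher by edgeR or DESeq2, beside 22% of all genes. By the adjusted p alone, H2-D1 was also lower, at -0.78 (SE 0.17, edgeR adjusted p = 0.000589), making 3 of 10 genes beside 26.6% of all genes. Psmb8 was higher by that rule, at 0.53 (SE 0.24, edgeR adjusted p = 0.0783), 1 of 10 genes beside 26.3% and the 1 gene higher at an unadjusted p below 0.05, and lost this when any 1 of 12 libraries was left out, with no low-count filter (edgeR adjusted p = 0.211) and with the Flt3+/+ libraries alone (0.101). H2-D1 was also called, at -0.95, without Flt3 ITD/ITD MNC replicate 2, the library with its highest MNC level, and at -1.03 with the Flt3+/+ libraries alone. The other 6 genes lay between -0.38 (Nlrc5) and 0.35 (Psmb9), with adjusted p values from edgeR of 0.443 to 0.793. Only B2m was lower without overlap, beside 9.12% of all genes.

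Against MSCs, MNCs were called higher in 7 of the 10 genes, beside 22% of all genes. Tap1 was higher by 4.87 on the log2 scale (edgeR adjusted p = 1.36e-05), Psmb9 by 4.75 (edgeR adjusted p = 4.99e-06) and Psmb8 by 4.54 (edgeR adjusted p = 8.79e-13). Nlrc5 was higher by 3.09 (edgeR adjusted p = 0.0192), Psmb10 by 2.20 (edgeR adjusted p = 5.88e-06), Tap2 by 1.73 (edgeR adjusted p = 0.00416) and H2-K1 by 0.95 with a mean RPKM ratio of 2.19 (edgeR adjusted p = 5.27e-06). With the Flt3+/+ libraries alone the Nlrc5 call was lost (edgeR adjusted p = 0.145), and H2-K1 no longer met the fold criterion. B2m (0.54, edgeR adjusted p = 0.000883) and H2-D1 (0.40, edgeR adjusted p = 0.0563) passed the adjusted p but not the fold, making 9 of 10 genes by the adjusted p alone beside 24.8% of all genes. H2-D1 missed it with no low-count filter (edgeR adjusted p = 0.170), with the Flt3+/+ libraries alone (0.299), with only MNCs and MSCs in the fit (0.189) and with the replicate block (0.115), and Tapbp (0.39, SE 0.19) had an edgeR adjusted p of 0.1003. In RPKM, Tap1, Psmb8, Psmb9, Psmb10 and Nlrc5 stood above MSCs in every MNC library, 5 of the 10 genes beside 12.2% of all genes. Leaving out both libraries with the highest leukocyte sums left the numbers called at 9, 2 and 7 in the 3 contrasts.

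**Figure D2:**
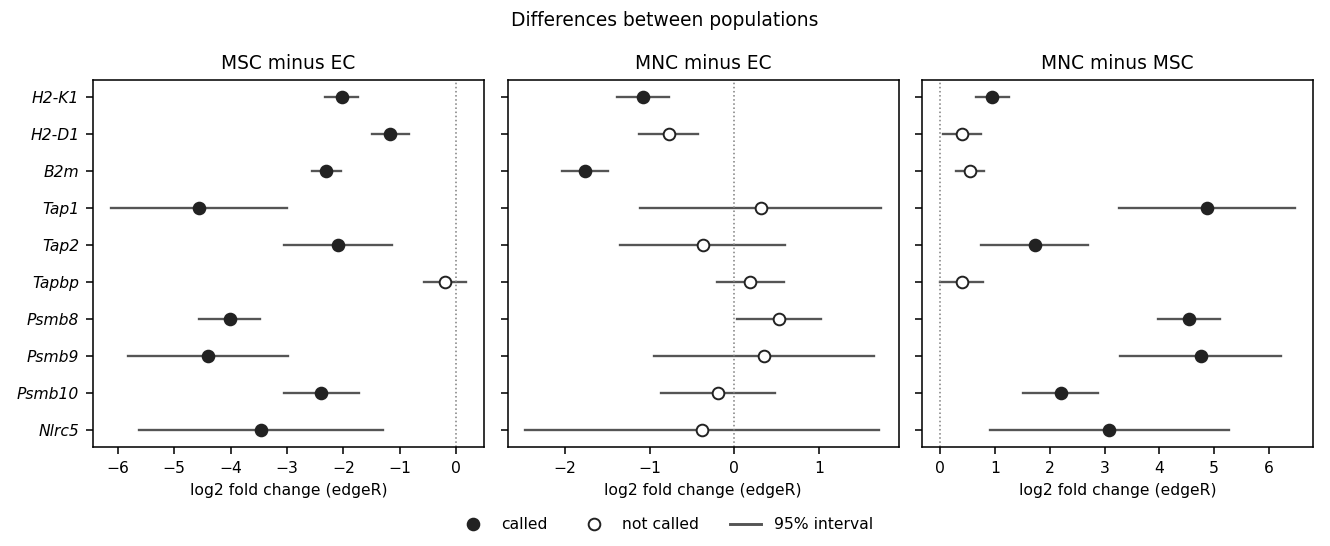
Log2 difference between populations from the edgeR model for each of the 10 genes, with 95% intervals, for MSC minus EC, MNC minus EC and MNC minus MSC (filled points were called). In the left panel 9 of 10 genes are called below 0, in the middle panel B2m and H2-K1, and in the right panel 7 genes are called above 0.

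The standard subunits that the immunoproteasome subunits replace were level across the populations, which makes their ratio within a library a measure per length. Psmb5 averaged 124, 125 and 129 RPKM in ECs, MSCs and MNCs, Psmb6 averaged 223, 231 and 227, and Psmb7 averaged 98.8, 84.5 and 97.4, with no call in any contrast between populations. The ratio of Psmb8 to Psmb5 averaged 1.40 ± 0.57 in ECs, 1.72 ± 0.50 in MNCs and 0.0845 ± 0.0640 in MSCs (SD, n = 10, 8 and 10). No MSC library exceeded 0.205 for this ratio. The ratio of Psmb9 to Psmb6 averaged 0.484 ± 0.121, 0.569 ± 0.0988 and 0.0213 ± 0.0224 in the same order. The ratio of Psmb10 to Psmb7 averaged 0.949 ± 0.584, 0.725 ± 0.150 and 0.198 ± 0.122 in that order. Part of the Psmb5 and Psmb7 sequence is shared with other GENCODE genes (53.2% and 27.9% of 51-base stretches). Reads there were discarded if the authors' transcript set holds those genes too, which was not checked. The level of these 2 genes may therefore be underestimated in every library. The ratios to Psmb5 and Psmb7 were therefore compared between libraries only, and which subunit of a pair was the more abundant cannot be read from them.

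The rest of the pathway was followed through lists of genes chosen by function. Of all genes tested, 16.3% were called lower and 16.6% higher in MSCs than in ECs, 23.1% lower and 22% higher in MNCs than in ECs, and 22.2% lower and 22% higher in MNCs than in MSCs. The counts of each list are given beside these shares as a description, and several lie near them. Of 19 tested class Ib and other class I-like chains, 14 were called lower and 2 higher in MSCs than in ECs, led by H2-Q6 (-3.90, edgeR adjusted p = 6.11e-10), from 67.0 to 4.16 RPKM, and by Cd1d2, which presents lipids (3.13, edgeR adjusted p = 0.00223). Cd1d2 was near 0 in most EC libraries, with a median of 0.065 and a highest value of 5.84 RPKM, and its log2 ratio of mean RPKM was 1.45 for MSCs and 2.34 for MNCs against ECs. In MNCs against ECs, 6 were called lower, with Mr1, which presents microbial metabolites, at -3.03, and 3 higher, with Cd1d2 at 4.001. Against MSCs, 7 were called higher in MNCs, with H2-Q10 at 2.13, and 1 lower, Mr1 at -4.22. Of 7 loading chaperones and trimming enzymes, 2 were called lower in MSCs than in ECs, with Erap1, which trims peptides in the endoplasmic reticulum, at -2.19. The chaperone Canx (calnexin) was the 1 called lower in MNCs than in ECs (-1.38), and in MNCs against MSCs 1 was called higher (Erap1, 1.59) and 2 lower, with Pdia3 (ERp57) at -1.88. None of the 14 standard core proteasome subunits was called between MSCs and ECs or between MNCs and ECs by edgeR (3 and 5 at an unadjusted p below 0.05, beside 42.1% and 52.4% of all genes), and 1, Psma7 (1.09), was called higher in MNCs than in MSCs. Among 9 activator and assembly genes, 2 were called lower in MSCs than in ECs, led by Psme1, a subunit of the interferon-induced cap of the proteasome (-1.96, edgeR adjusted p = 5.29e-08), and 4 were called higher in MNCs than in MSCs, again led by Psme1 (1.82). Against ECs, 1 was called higher in MNCs, Psme3 (3.11). Of 19 genes of interferon signaling and class I regulation, 5 were called lower in MSCs than in ECs, led by the transcription factor Irf7 (-2.36, edgeR adjusted p = 0.00595). In MNCs, 5 were called higher than in MSCs and 2 lower, with the signaling inhibitor Socs1 at -3.13. Against ECs, 2 were called lower in MNCs, with Socs1 at -2.54.

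Between the genotypes, no gene of the 10 was called in any population, while most estimates lay above 0. Flt3 itself was at 2.53 to 6.96 RPKM in Flt3+/+ MNCs and 6.91 to 14.8 in Flt3 ITD/ITD MNCs and at most 1.37 elsewhere, and a gene count cannot show the duplication. The edgeR test within ECs, MSCs and MNCs called 0 of the 10 genes, beside 0%, 0% and 0.0144% of all genes called higher and 0.0081%, 0.0295% and 0% called lower. At an unadjusted p below 0.05 edgeR gave 3 of 10 genes in ECs, 5 of 9 tested in MSCs and 1 of 10 in MNCs, each with its higher mean in Flt3 ITD/ITD, beside 2.5%, 2.28% and 5.39% of all genes higher. DESeq2 gave 0, 1 and 1 gene at an adjusted p below 0.1, which was H2-K1 in MSCs and in MNCs, and none with the fold criterion, beside 0.864%, 0.49% and 1.14% of all genes higher at that adjusted p. Estimates were above 0 for 8 of 10, 6 of 9 and 10 of 10 genes, beside 49.1%, 52.1% and 49.5% of all genes tested. Their medians were 0.28, 0.54 and 0.35 on the log2 scale against -0.01, 0.03 and -0.01 over all genes.

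The class I chains had higher means in Flt3 ITD/ITD in all 3 populations. In ECs, H2-K1 was at 794, 656, 675, 615 and 438 RPKM in the 5 Flt3+/+ libraries and at 947, 919.6, 734, 1143 and 737 in the 5 Flt3 ITD/ITD libraries. The highest Flt3+/+ library exceeded the lower pair of Flt3 ITD/ITD libraries, and the log2 difference was 0.52 (SE 0.19, 95% interval 0.11 to 0.93, edgeR adjusted p = 0.927). In MSCs, H2-K1 was at 99.4, 144, 147, 137 and 131 RPKM in Flt3+/+ and at 246, 182, 177, 161 and 156 in Flt3 ITD/ITD. The lowest Flt3 ITD/ITD library exceeded the highest Flt3+/+ library, a separation seen in the higher direction in 1 of the 10 genes and 0.354% of all genes, with a log2 difference of 0.54 (SE 0.18, edgeR adjusted p = 0.999). DESeq2 gave H2-K1 in MSCs a log2 difference of 0.56 with an adjusted p of 0.0992. In MNCs, H2-K1 was at 299, 313, 154 and 198 RPKM in Flt3+/+ and at 485, 528, 410.4 and 377 in Flt3 ITD/ITD. The 4 libraries of each genotype were again apart, and the log2 difference was 0.75 (SE 0.21, edgeR adjusted p = 0.397), or 0.75 with an adjusted p of 0.0413 by DESeq2.

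H2-D1 overlapped between genotypes in every population, and in ECs so did all 10 genes, beside 0.599% of all genes higher without overlap. In ECs it was at 1632, 1539, 1541, 1352 and 1255 RPKM in Flt3+/+ and at 1905, 1520.0, 1831, 1948 and 1775 in Flt3 ITD/ITD, with a log2 difference of 0.27 (SE 0.11, edgeR adjusted p = 0.942). In 4 of the 5 Flt3 ITD/ITD EC libraries it exceeded the highest Flt3+/+ library. In MSCs it was at 439, 537, 409, 478 and 682 RPKM and at 995, 799, 527, 657 and 687 (0.59, SE 0.19, edgeR adjusted p = 0.999), where 3 of the 5 Flt3 ITD/ITD libraries exceeded the highest Flt3+/+ library. In MNCs it was at 971, 711, 624 and 348 RPKM and at 1070.3, 1932, 745 and 851 (0.60, SE 0.34, edgeR adjusted p = 0.555). The spread in MNCs, with 1 Flt3 ITD/ITD library at 1932 RPKM, was the widest of this gene.

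B2m differed between genotypes by less than 1 log2 unit in each population. In ECs it was at 9981, 9971, 10846, 9234 and 6988 RPKM in Flt3+/+ and at 11818, 9090.0, 10521, 14533 and 11286 in Flt3 ITD/ITD (0.30, SE 0.15, edgeR adjusted p = 0.9998). In MSCs it was at 1921, 1367, 1408, 1393 and 1268 RPKM and at 2025, 1747, 1718, 2876 and 2393 (0.61, SE 0.19, edgeR adjusted p = 0.999). Flt3+/+ replicate 1 exceeded 2 of the 5 Flt3 ITD/ITD libraries, and the other 4 Flt3+/+ libraries lay below all of them. In MNCs it was at 2343, 2746, 2110.1 and 2294 RPKM and at 3001, 3284, 3911 and 3041 (0.28, SE 0.17, edgeR adjusted p = 0.589). The MNC groups did not overlap in RPKM, one of 3 genes with H2-K1 and Tapbp that stood apart in the higher direction in MNCs, beside 5.72% of all genes.

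Tap1 and Tap2 had a wide spread between mice of the same genotype. In ECs, Tap1 was at 25.7, 1.83, 19.95, 11.7 and 7.06 RPKM in Flt3+/+ and at 3.60, 21.5, 23.3, 15.0 and 18.7 in Flt3 ITD/ITD (log2 difference 0.33, SE 0.68). In MSCs it was at 0.11, 0.74, 0.01, 0.08 and 0.02 RPKM and at 5.43, 0.06, 0.34, 0.30 and 1.54, a log2 difference of 3.06 with an SE of 1.39 (edgeR adjusted p = 0.999). That estimate fell to 1.58 without Flt3 ITD/ITD replicate 1 and rose to 4.92 without Flt3+/+ replicate 2, so single libraries set its size. In MNCs Tap1 was at 21.0, 17.1, 5.57 and 9.36 RPKM and at 19.9, 27.0, 23.6 and 18.3 (0.61, SE 0.31, edgeR adjusted p = 0.524). The Flt3+/+ MNC libraries fell into a higher and a lower pair, and 1 library of the higher pair lay within the Flt3 ITD/ITD range. Tap2 was at 14.2, 5, 4.68, 7.42 and 19.7 RPKM in Flt3+/+ ECs and at 1.19, 17.8, 23.7, 16.1 and 45.9 in Flt3 ITD/ITD ECs (1.04, SE 0.77). The Flt3 ITD/ITD ECs held both its lowest and its highest value. Its differences were 0.20 (SE 0.61) in MSCs and 0.56 (SE 0.49) in MNCs. Tapbp differed by -0.35 (SE 0.32) in ECs and -0.08 (SE 0.22) in MSCs. In MNCs it was at 56.6, 60.2, 36.4 and 34.3 RPKM in Flt3+/+ and at 61.0, 84.5, 62.0 and 60.3 in Flt3 ITD/ITD (0.35, SE 0.19, edgeR adjusted p = 0.528), with the lowest Flt3 ITD/ITD library just above the highest Flt3+/+ one.

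Among the immunoproteasome subunits, Psmb8 had the largest genotype estimates. In ECs it was at 130.04, 121, 169, 120.5 and 123 RPKM in Flt3+/+ and at 263, 200.3, 121, 203 and 196 in Flt3 ITD/ITD (0.58, SE 0.23, edgeR adjusted p = 0.935). Of the 5 Flt3 ITD/ITD libraries, 4 lay above every Flt3+/+ library and the remaining one lay among the lowest. In MSCs it was at 6.90, 2.52, 4.61, 4.66 and 8.08 RPKM and at 24.9, 4.26, 10.3, 13.3 and 14.7 (1.38, SE 0.56, edgeR adjusted p = 0.999), and again 4 of 5 exceeded the highest Flt3+/+ library. In MNCs it was at 254, 209.7, 124 and 133 RPKM and at 254, 260.3, 282 and 235 (0.36, SE 0.19, edgeR adjusted p = 0.529). Psmb9 differed by 0.16 (SE 0.39) in ECs and 0.05 (SE 0.18) in MNCs. In MSCs Psmb9 was at 9.30, 0.34, 5.25, 2.09 and 5.89 RPKM in Flt3+/+ and at 10.2, 0.33, 10.6, 0.05 and 0.12 in Flt3 ITD/ITD (-0.08, SE 1.33), and both genotypes held libraries on either side of 1 RPKM. Psmb10 differed by 0.14 (SE 0.47) in ECs, -0.11 (SE 0.52) in MSCs and 0.15 (SE 0.17) in MNCs. Its Flt3 ITD/ITD EC libraries, at 71.2, 118, 178, 56.4 and 25.1 RPKM, ran both above and below the Flt3+/+ range of 44.6 to 109.

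Nlrc5 was at 12.0, 6.53, 3.18, 8.79 and 0.10 RPKM in Flt3+/+ ECs and at 3.04, 2.86, 2.45, 3.78 and 2.26 in Flt3 ITD/ITD ECs, a log2 difference of -1.01 (SE 0.84, edgeR adjusted p = 0.9998). The Flt3 ITD/ITD values lay close together and inside the wide Flt3+/+ range. In MNCs it was at 2.26, 3.58, 1.94 and 2.25 RPKM and at 2.32, 4.04, 4.02 and 4.44 (0.33, SE 0.25, edgeR adjusted p = 0.670). In MSCs Nlrc5 had too few counts to be tested, and with every gene kept its estimate was 1.43 (SE 2.09, edgeR adjusted p = 0.900).

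**Figure D3:**
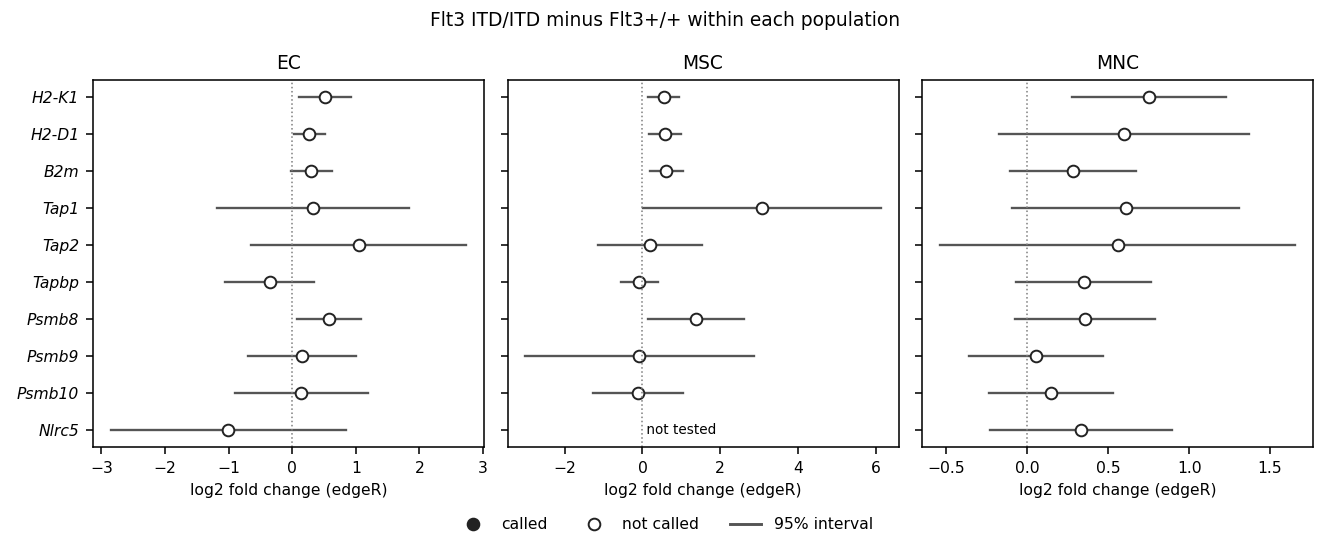
Log2 difference of Flt3 ITD/ITD minus Flt3+/+ for each of the 10 genes in ECs, MSCs and MNCs, with 95% intervals from edgeR (no point is filled because no gene was called, and each panel has its own x axis). The estimates for H2-K1 lie at 0.52, 0.54 and 0.75, and Nlrc5 was not tested in MSCs.

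The class I estimates were also set beside leukocyte signal in ECs and MSCs and the makeup of the marrow in MNCs. Without Flt3 ITD/ITD EC replicate 2, 8 of 10 genes were above 0 with a median of 0.26, and without Flt3 ITD/ITD MSC replicate 5, 8 of 10 tested were above 0 with a median of 0.60. In MNCs, replicates 1 and 2 had summed immediate-early RPKM of 294 to 475 over both genotypes and replicates 3 and 4 had 19.2 to 32.2, although the labels name no batch. Within replicates 1 and 2, the log2 ratio of mean RPKM was above 0 for 9 of 10 genes (median 0.30, Psmb9 -0.10), beside 47.6% of all genes (median -0.02). Within replicates 3 and 4 it was above 0 for 10 of 10 (median 0.75), but RPKM was higher in Flt3 ITD/ITD for 72.3% of all genes there, with a median of 0.45, so these values carry a shift of all genes. H2-K1 was higher by 0.73 and 1.16, Psmb8 by 0.15 and 1.004, and Tap1 by 0.30 and 1.49 in the first and the second pair of replicates. With this split as a term in edgeR, 0 of the 10 genes were called, and 0 of all 13926 tested. At an unadjusted p below 0.05 edgeR then gave 3 of the 10, beside 1659 of the 13926 in either direction. Summed neutrophil RPKM was 165437 to 204114 in Flt3+/+ MNCs and 42581 to 177448 in Flt3 ITD/ITD, summed erythroid RPKM was 92.9 to 144737 and 2150 to 22247, and summed MHC class II RPKM reached 32523 in Flt3 ITD/ITD MNC replicate 3 against 795 to 3868 in the other 7 libraries. The part of these differences in cell makeup in the class I values was not tested.

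The genotype differences were not shown to differ between populations. In the edgeR model of all 6 groups, none of the 10 genes was called at an adjusted p below 0.1 for the interaction of genotype with MSC against EC, MNC against EC or MNC against MSC, beside 0.379%, 0.0118% and 0.00592% of all genes. DESeq2 also called none of the 10, beside 489 genes positive and 472 negative, 282 and 235, and 202 and 186 in the same order, of 24339 tested. At an unadjusted p below 0.05 edgeR gave 0, 0 and 1 of the 10 genes, beside 1788, 1391 and 1003 of the 16897 genes tested. The 1 gene was Psmb8, whose genotype estimate was lower in MNCs than in MSCs by -1.04 (SE 0.49, edgeR adjusted p = 0.821). The widest estimate was that of Tap1, higher in MSCs than in ECs by 2.74 (SE 1.34, edgeR adjusted p = 0.476). Without Flt3+/+ MSC replicate 4, Nlrc5 was called for MSC against EC (8.81, SE 1.83, edgeR adjusted p = 0.0819), when the remaining Flt3+/+ MSC libraries held 1 Nlrc5 count in all.

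The balance of immunoproteasome to standard subunits was compared between genotypes in each library as the log2 ratio of RPKM + 0.1. The ratio of Psmb8 to Psmb5 was higher in Flt3 ITD/ITD by 0.64 in ECs, 1.36 in MSCs and 0.73 in MNCs. Exact two-sided permutation tests gave p = 0.0873, 0.0397 and 0.0286, and 0.196, 0.171 and 0.171 after Benjamini-Hochberg adjustment over the 9 ratios compared, so none passed. The MNC groups did not overlap for this ratio, at 0.09 to 0.61 in Flt3+/+ and 0.93 to 1.31 in Flt3 ITD/ITD on the log2 scale, and 0.0286 is the smallest exact p that 4 against 4 libraries allow. The ratio of Psmb9 to Psmb6 differed by 0.17, -1.63 and 0.22 (exact permutation p = 0.651, 0.357 and 0.229, adjusted p = 0.651, 0.459 and 0.343). In MSCs that difference became 1.13 when only libraries with at least 1 RPKM of both genes were kept. The ratio of Psmb10 to Psmb7 differed by 0.46, -1.14 and 0.43 (exact permutation p = 0.413, 0.111 and 0.0571, adjusted p = 0.464, 0.2 and 0.171). In MSCs the 3 estimates did not share a direction, and the mean of Psmb7 itself was 61.7 ± 20.9 RPKM in Flt3+/+ and 107 ± 29.5 in Flt3 ITD/ITD (SD, 5 libraries each).

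**Figure D4:**
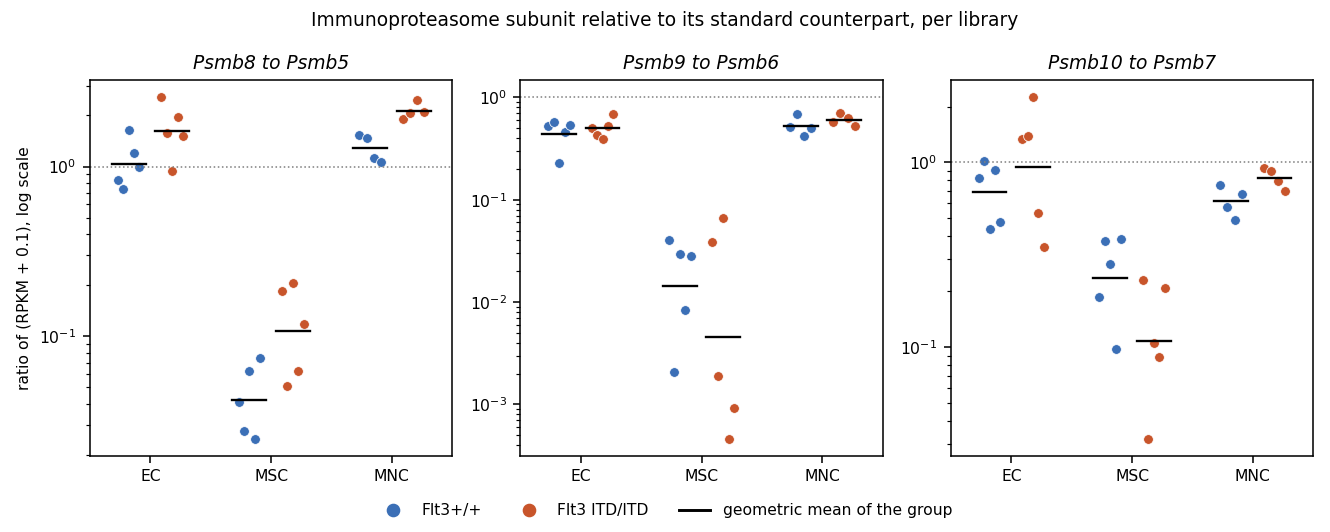
Ratio of each immunoproteasome subunit to the standard subunit it replaces, computed from RPKM + 0.1 in every library and drawn on a log axis (dotted line at 1, bars at geometric means of each group). Every MSC library lies below every EC and MNC library for Psmb8 to Psmb5 and Psmb9 to Psmb6, and the Flt3 ITD/ITD MNC libraries lie above the Flt3+/+ ones for Psmb8 to Psmb5.

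In the other lists of the pathway no gene was called between the genotypes in any population by edgeR. Among the class Ib and class I-like chains, estimates were above 0 for 16 of 18, 17 of 19 and 16 of 19 genes in ECs, MSCs and MNCs, with medians of 0.40, 0.52 and 0.47, beside 49.1%, 52.1% and 49.5% of all genes tested above 0. Of them 0, 6 and 2 had an unadjusted p below 0.05 in edgeR, beside 4.99%, 4.24% and 10.4% of all genes in either direction. Of the loading chaperones 0, 1 and 0, of the core subunits 2, 1 and 0, of the activator and assembly genes 1, 0 and 1, and of the interferon and regulator genes 3, 0 and 2 did so. Several class Ib genes are close to H2-K1 and H2-D1 in sequence, and reads common to them were not counted. H2-L, the near copy of H2-D1, is among the chains of that list, and its values followed those of H2-D1. Among the 14 standard core proteasome subunits, 5, 9 and 2 were above 0, with medians of -0.12, 0.03 and -0.13. The 19 interferon and regulator genes had medians of 0.25, 0.28 and 0.08 over those tested, and the 9 activator and assembly genes 0.37, 0.27 and 0.05.

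Within groups, the 10 genes varied together only loosely. On log2(RPKM + 1) after removing each group's mean, 33 of the 45 pairs had a positive Pearson r over the 28 libraries, with a median of 0.12. H2-K1 and H2-D1 were the closest pair (r = 0.53), followed by Psmb8 and Psmb9 (0.45), H2-K1 and Nlrc5 (0.42), H2-D1 and Tapbp (0.40), H2-K1 and Tap1 (0.39) and Tap1 and Tap2 (0.38), and Tap2 and Psmb8 were the least alike (-0.20). The genes whose pattern was most like the mean of the 10 were Ndufs5 (r = 0.79), Rps10 (0.77), BC002288 (0.76), Hist1h4c (0.74) and Camk1d (0.73), out of 8570 candidates, of which 13.9% had an r above 0.3. The points share library depth and preparation, so these values are a description. Within groups the coefficient of variation was 11.3% to 22.7% for B2m and 14.4% to 32.1% for H2-K1, and it reached 161% for Tap1, 132% for Psmb9 and 221% for Nlrc5, each in an MSC group.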

How the data were processed

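Bulk RNA-seq of 28 libraries from sorted ECs, MSCs and unfractionated MNCs was analysed. Per the labels and the study's methods, polyadenylated RNA was amplified with the SMARTer Ultra Low kit, single-end reads of 51 bases were mapped with Bowtie to mm10 transcripts and reads with several positions were discarded (tool versions are not given in the sources used here). The authors deposited whole-number read counts per gene from RSEM, used here as they stand. The authors deposited RPKM values beside them, scaled to gene length and library depth. Both are given for 25251 genes, and a library held 6377013 to 33880743 counts. The members and all lists were chosen with earlier results of these data known.

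Counts were fitted with edgeR 4.0.16 (quasi-likelihood, TMM, filterByExpr, R 4.3.3), within each population for genotype and across all 6 groups for populations and interactions. Adjusted p values (Benjamini-Hochberg) cover all genes tested, and RPKM served for levels, the fold criterion and ratios. Exact permutation tests were two-sided, with 9 ratios adjusted together (scipy 1.17.1). The 10 members are named throughout, with Psmb5, Psmb6 and Psmb7. Of each other list, the called gene with the largest rise and the one with the largest fall are named, and the 5 genes most like the members by correlation, except 1 gene that is not reported here. Alternatives were DESeq2 1.42.0, RLE size factors, no low-count filter, a replicate block, a pan-leukocyte covariate, other library sets and pseudocounts, and each library left out. Data were simulated for the genotype comparisons, with 200 altered genes drawn at random from all genes tested. In them, 4-fold changes were recovered for 18% of altered genes in ECs (12351 genes), 31% in MSCs (13574) and 67% in MNCs (13926). For 16-fold changes the recovery was 42%, 68% and 94%. Intervals cover the spread between mice.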

Additional observations from a re-analysis of the deposited data

Results flagged for a closer look

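Within the 60 groups of libraries given by the 10 genes, a single library stood apart from the others of its group by Dixon's test at the 95% level in 7, and chance alone flags about 5% of groups. In Flt3+/+ MSCs, replicate 1 held 1921 RPKM of B2m against 1408 in the next library. In the same group, replicate 2 held 0.74 RPKM of Tap1 against 0.11, and replicate 4 held 6.27 RPKM of Tap2 against 2.45 and 0.96 RPKM of Nlrc5 against 0.01. In Flt3 ITD/ITD MSCs, replicate 1 held 5.43 RPKM of Tap1 against 1.54. In Flt3 ITD/ITD MNCs, replicate 2 held 84.5 RPKM of Tapbp against 62.0, and in Flt3+/+ ECs replicate 3 held 168.6 RPKM of Psmb8 against 130.04. Of these 7 values, 5 are from MSCs, where 2 and 6 of 10 libraries held 3 counts or fewer of Tap1 and Nlrc5.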

How the results depend on the processing

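The numbers of genes called, 9, 2 and 7 between populations and 0 within each population between genotypes, were the same with DESeq2, RLE size factors and no low-count filter. Of the other settings, the adjusted p alone gave 4 genes for MNCs against ECs, and the Flt3+/+ libraries alone or leaving out Flt3 ITD/ITD MNC replicate 2 gave 3, adding H2-D1. The Flt3+/+ libraries alone gave 7 for MSCs against ECs and 5 for MNCs against MSCs, and the adjusted p alone gave 9 for MNCs against MSCs. For the interaction of MSCs against ECs, leaving out single libraries gave 0 to 1, the 1 being Nlrc5 without Flt3+/+ MSC replicate 4. H2-K1 passed the adjusted p between genotypes with DESeq2 (0.0992 in MSCs and 0.0413 in MNCs), where edgeR without single libraries gave 0.783 to 0.999998 and 0.229 to 0.724. The cause of these changes was not tested.

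The genotype difference in the ratio of Psmb9 to Psmb6 turned from -1.63 to 1.13 in MSCs with only the libraries of at least 1 RPKM of both genes (adjusted exact permutation p = 0.343), and in ECs it was -0.064 to 0.27 when single libraries were left out, negative without Flt3+/+ replicate 3. Among genes not called, signs changed as follows, and the cause was not tested. With the replicate number as a block, Psmb10 in ECs became -0.13 between genotypes, and Tap1 and Tap2 became -0.051 and 0.022 for MNCs against ECs. Psmb10 in ECs was -0.086 with a pan-leukocyte covariate, and Tapbp was -0.26 for MNCs against ECs in Flt3+/+ alone. Leaving out single libraries gave -0.057 to 0.46 for Psmb9 and -0.26 to 0.39 for Psmb10 in ECs. In MSCs it gave -0.023 to 0.76 for Tap2, -0.22 to 0.029 for Tapbp, -0.74 to 0.36 for Psmb9 and -0.30 to 0.14 for Psmb10. In MNCs it gave -0.079 to 0.13 for Psmb9.

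Libraries of the same number were not treated as pairs, since their deviations from group means correlated at only -0.07 to 0.07. As a hint of a shared factor from the data, 6 of 10 libraries in ECs and 6 of 10 in MSCs correlated best with their own number, among 5 candidates each. In MNCs 2 of 8 did so among 4 candidates, which is no hint, but immediate-early sums followed the number there. The same-number pairs of MSCs correlated at 0.023 to 0.066 between genotypes, against a median of -0.012 for other pairs. The replicate block left the numbers of genes called at 9, 2 and 7 between populations and at 0 between genotypes, and H2-D1 for MNCs against MSCs missed the adjusted p alone with it (0.115). Values of Tap1, Psmb9 and Nlrc5 in MSCs were imprecise where libraries held 3 counts or fewer (2, 2 and 6 of 10). MSC library totals ran from 10674182 to 33714502 counts. Simulated 4-fold changes, placed in genes drawn at random from all tested, were mostly missed in ECs and MSCs. That recovery was not measured for the class I chains, whose genotype SEs were 0.11 to 0.19 in these 2 populations.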
